A study of Mus musculus with 24 samples.

Results

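Cytochrome P450 genes of the subfamilies Cyp1a, Cyp1b, Cyp2a, Cyp2c, Cyp2d, Cyp2e, Cyp2f, Cyp2g, Cyp2j, Cyp2r, Cyp2u and Cyp3a were followed in the liver of 24 mice. They were taken by the gene name printed on the array, which gave 68 probes for 53 genes among 56605 probes. A probe was tested if its spots rose well above background in 75% or more of the mice of any group, which left 56 probes for 45 of these genes and 30003 probes in all. RNA came from male C57Bl6J mice of the third generation of 2 lineages, killed while fasting. The reference group (9 mice) descended from mothers fed high-oleic sunflower oil, the control oil, and received a low-fat diet. The HFoleic group (8 mice) belonged to that same oleic lineage and received an obesogenic diet rich in fat and sucrose. The HFepa group (7 mice) received the obesogenic diet too, but came from a lineage fed fish oil rich in eicosapentaenoic acid (EPA). The EPA lineage had no mice on low-fat food, so that in HFepa against reference the diet, the lineage and the oil cannot be told apart. Ages and litters are not given in the sources used here, and p-values measure the spread between these mice.

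These enzymes sit in the endoplasmic reticulum, where a haem group activates oxygen with electrons passed on by the reductase Por and by cytochrome b5. They oxidise drugs, steroids, bile acids, retinoids, vitamin D and polyunsaturated fatty acids, and the liver is their main site. Many are induced through the receptors Ahr, Nr1i2 (PXR) and Nr1i3 (CAR), several differ between the sexes in mouse liver, and many are found mostly around the central vein of the lobule. Tandem gene copies make several of them close to each other in sequence.

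Since the subfamilies are so alike, the probe sequences bear on which gene a signal stands for. The Cyp3a59 probe lies on chromosome 5 (mm9, chr5:146920638-146920697, plus strand) and is shown because it covers the stretch that codes for the haem-binding signature, in capitals.
Cyp3a59: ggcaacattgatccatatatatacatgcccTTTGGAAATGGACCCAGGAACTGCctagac
The probes of Cyp3a25 (chr5:146789175-146789234, minus strand) and Cyp3a57 (chr5:146151322-146151381, plus strand) overlap in 52 bases of transcript sequence and share 49 of them. They are shown with the 3 differing bases in capitals.
Cyp3a25: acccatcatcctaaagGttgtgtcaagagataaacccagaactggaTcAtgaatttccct
Cyp3a57: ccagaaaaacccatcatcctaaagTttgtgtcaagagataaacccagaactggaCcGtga
The probes of Cyp3a11 (chr5:146672058-146673925, minus strand, across an intron) and Cyp3a16 (chr5:146197274-146197333, minus strand, first 30 bases) are shown because these genes had the largest differences among the Cyp3a probes.
Cyp3a11: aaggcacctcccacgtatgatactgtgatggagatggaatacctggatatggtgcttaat
Cyp3a16: gatgcagtcataactggagcgtgattttcc
The Cyp2c37 probe (chr19:40086399-40086458, plus strand) ends with the 12 bases with which the Cyp2c50 probe (chr19:40188154-40188213, plus strand, first 30 bases) begins, in capitals.
Cyp2c37: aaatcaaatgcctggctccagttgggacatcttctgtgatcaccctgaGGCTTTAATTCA
Cyp2c50: GGCTTTAATTCActgctttccacactggac
Cyp2u1 had 3 probes on the minus strand of chromosome 3 that did not move together. The first below, A_55_P1966734 (chr3:130996343-130996402), holds a dinucleotide repeat of 32 bases, of which bases 11 to 40 of the probe are shown with the repeat in capitals. The others are A_66_P101879 (chr3:130997965-130998356) and A_52_P421698 (chr3:131000768-131000827).
Cyp2u1 A_55_P1966734: tgGTGTGTGTGTGTGTGTGTGTGTGTGTGT
Cyp2u1 A_66_P101879: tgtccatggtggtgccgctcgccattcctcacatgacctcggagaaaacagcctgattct
Cyp2u1 A_52_P421698: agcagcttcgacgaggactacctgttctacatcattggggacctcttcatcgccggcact

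The arrays gave 28804 to 34432 probes above background each, and no spot was saturated. Reference mouse 5 stood apart from the other 23 mice. Its score on the first principal component, which held 18.7% of the variance, was -78.1, against -28.2 to 12.9 in the others. Its summed log2 level of 4 bile duct markers was 13.40, against 10.45 to 11.41 in the other 8 reference mice, and that of 5 stellate cell markers was 15.57, against 13.94 to 14.84. The hepatocyte markers (Alb, Apoa1, Ttr, Serpina1a and Tat) summed to between 19.74 and 19.84 in every mouse, whereas 3 of 5 lung markers (Sftpc among them, above background in 0 mice) and 4 of 5 kidney markers did not pass the filter. The 4 tested adipocyte markers summed to between 8.74 and 13.44. The 2 tested exocrine pancreas markers reached 10.73 in HFepa, against at most 8.85 in reference and 8.79 in HFoleic. In whole liver, fewer cells of a type and less RNA per cell cannot be told apart. Several of the P450 results that reference mouse 5 moved, but not all, are given with and without it.

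In HFoleic against reference, 6 of the 56 P450 probes (10.7%) passed the test (limma, Benjamini-Hochberg adjusted p under 0.05), beside 7.23% of all probes tested. They stood for 5 genes. Cyp2j5, Cyp2d13 and a Cyp2u1 probe were higher, Cyp3a16 and Cyp3a59 were lower, and the repeat-bearing Cyp2u1 probe was lower. That last probe is 1 of 71 tested probes with such repeats, given below, and all 71 were called lower. Whether it reads Cyp2u1 RNA was not tested, so that its place among the 6 is uncertain. The 3 higher were 3 of 56 beside 4.05% of all probes, and the 3 lower were 3 of 56 beside 3.19%. The median log2 fold change of the 56 probes was 0.10, against -0.0007 for all probes tested. An unadjusted p under 0.05 was reached by 24 of the 56, 17 higher and 7 lower, beside 21.1% of all probes. Without reference mouse 5, 10 probes passed, beside 7.20% of all probes, and 4 of the 6 were among them.

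**Figure D1:**
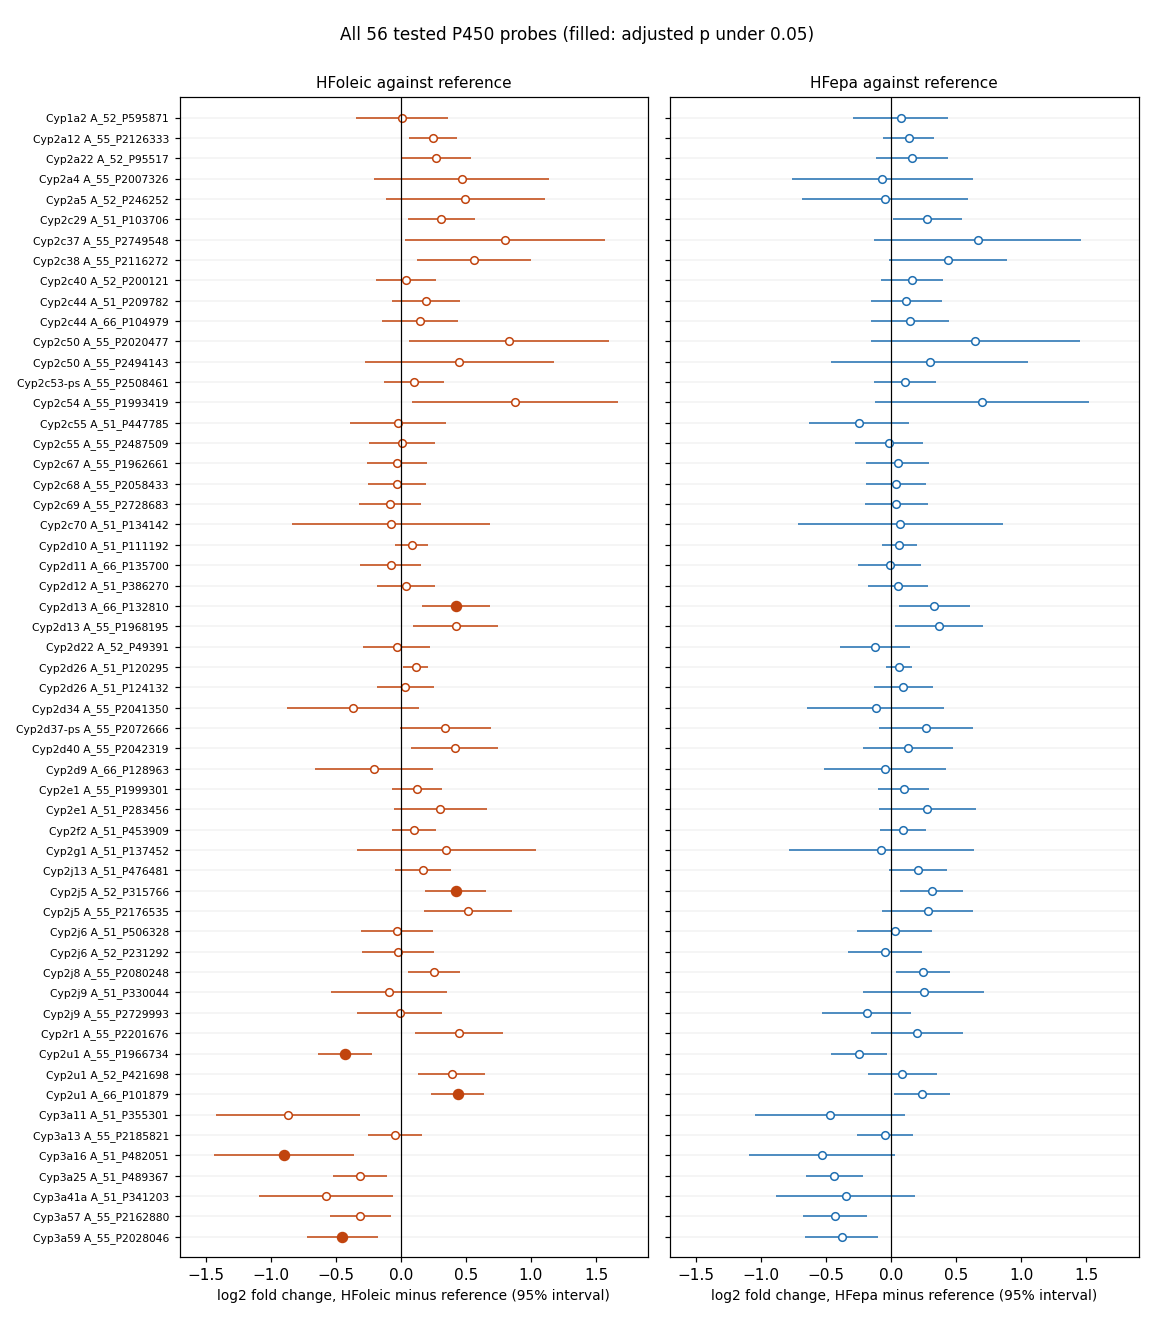
Log2 fold change (x axis) of the 56 tested P450 probes (rows) in HFoleic and in HFepa against the 9 reference mice, with bars for the 95% interval and filled points for adjusted p under 0.05. In HFoleic 6 points are filled, and in HFepa none. All 7 Cyp3a points lie below 0 in both panels, which share the reference mice. Of all probes tested, 49.8% lie above 0 in HFoleic and 51.7% in HFepa.

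Cyp3a enzymes carry much of the hepatic oxidation of drugs and steroids. The 7 tested Cyp3a probes lay below 0 in HFoleic, with a median of -0.45, where 49.8% of all probes lay above 0. Of the 7, 2 were called lower, beside 3.19% of all probes. The 7 are not separate readings, since some of these probes share sequence or RefSeq matches. In Cyp3a16, a female-biased member of the subfamily, log2 signal was 12.85, 13.22 and 14.29 in reference (lowest, median, highest), 10.77, 12.37 and 13.12 in HFoleic, and 12.02, 12.95 and 13.33 in HFepa. All 8 HFoleic mice were below the reference mean, and 5 were below the lowest reference mouse. Means were 13.26 ± 0.44 (SD, n = 9) in reference and 12.37 ± 0.76 (SD, n = 8) in HFoleic, a log2 fold change of -0.90 (95% interval -1.44 to -0.36, adjusted p = 0.0359 by limma), or 1.86-fold lower. Within the 3 slides the difference was -1.83, -0.92 and 0.04. It lost its call without reference mouse 5 (-0.77, adjusted p = 0.0638), without HFoleic mouse 2 (-0.67, 0.0626), and also without reference mouse 1, 6 or 7 or HFoleic mouse 1, 3, 5 or 8 (-0.90 to -0.86, adjusted p 0.0505 to 0.0691 by limma).

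In Cyp3a59, whose probe covers the haem-binding signature shown above, log2 signal was 13.48, 13.64 and 14.16 in reference, 12.83, 13.17 and 13.76 in HFoleic, and 12.92, 13.46 and 13.75 in HFepa. The groups overlapped, and 7 of 8 HFoleic mice were below the reference mean. The log2 fold change in HFoleic was -0.45 (95% interval -0.72 to -0.18, adjusted p = 0.0364 by limma), with within-slide values of -0.77, -0.67 and 0.03. It lost its call without reference mouse 5 (-0.39, adjusted p = 0.0648), and without reference mouse 1, 6 or 7 or HFoleic mouse 1, 2, 3, 5 or 8 (adjusted p 0.0549 to 0.0789 by limma).

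The others of the subfamily did not pass. Cyp3a11, the main drug-metabolising P450 of mouse liver and a PXR target, lay at 13.41, 13.72 and 14.71 in reference, 11.18, 13.01 and 13.66 in HFoleic, and 12.65, 13.53 and 14.05 in HFepa. Its log2 fold change in HFoleic was -0.86 (-1.42 to -0.31), just outside the threshold (adjusted p = 0.0505 by limma). It passed without HFoleic mouse 4, 6 or 7 (-0.97 to -0.94) or HFepa mouse 2 or 6 (-0.86 and -0.87). The probe lists Cyp3a41a, Cyp3a41b and Cyp3a44 as further RefSeq matches, so that its signal cannot be assigned to 1 gene. Over all subfamilies, 9 of the 56 tested probes list more than 1 RefSeq gene, and the same limit holds for them. With untested probes counted too, such probes belong to 3 Cyp3a genes, 5 Cyp2c genes, 1 Cyp2a gene and 1 Cyp2j gene. Cyp3a41a, female-biased, lay at 15.97, 16.20 and 17.28 in reference, 14.09, 15.89 and 16.41 in HFoleic, and 15.46, 16.17 and 16.55 in HFepa (log2 fold change in HFoleic -0.57, adjusted p = 0.176 by limma). For Cyp3a11, Cyp3a16 and Cyp3a41a alike the highest reference mouse was mouse 5 and the lowest HFoleic mouse was mouse 2. Cyp3a13, with 12.63, 12.82 and 12.95 in reference and 12.51, 12.63 and 13.34 in HFoleic, had a log2 fold change of -0.05.

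Cyp3a25 and Cyp3a57, the pair with near-identical probes, had lower means in both obesogenic groups, which did not pass the test. Cyp3a25 lay at 14.29, 14.67 and 14.85 in reference, 14.09, 14.27 and 14.46 in HFoleic, and 13.83, 14.19 and 14.53 in HFepa. All 8 HFoleic and all 7 HFepa mice lay below the reference mean, with log2 fold changes of -0.31 (adjusted p = 0.0621) and -0.44 (adjusted p = 0.0589 by limma). In HFoleic the call appeared without reference mouse 5 (-0.35, adjusted p = 0.0397), reference mouse 3 (-0.35, 0.0417) or HFepa mouse 2 (-0.31, 0.0469). In HFepa it appeared without reference mouse 3 (-0.47, 0.0427), reference mouse 8 (-0.43, 0.0489) or HFepa mouse 5 (-0.48, 0.0485). Cyp3a57 lay at 13.53, 13.88 and 14.17, 13.32, 13.59 and 13.81, and 13.10, 13.46 and 13.94 in the same groups, with log2 fold changes of -0.31 (adjusted p = 0.103) and -0.43 (adjusted p = 0.0963). These comparisons share the reference mice.

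**Figure D2:**
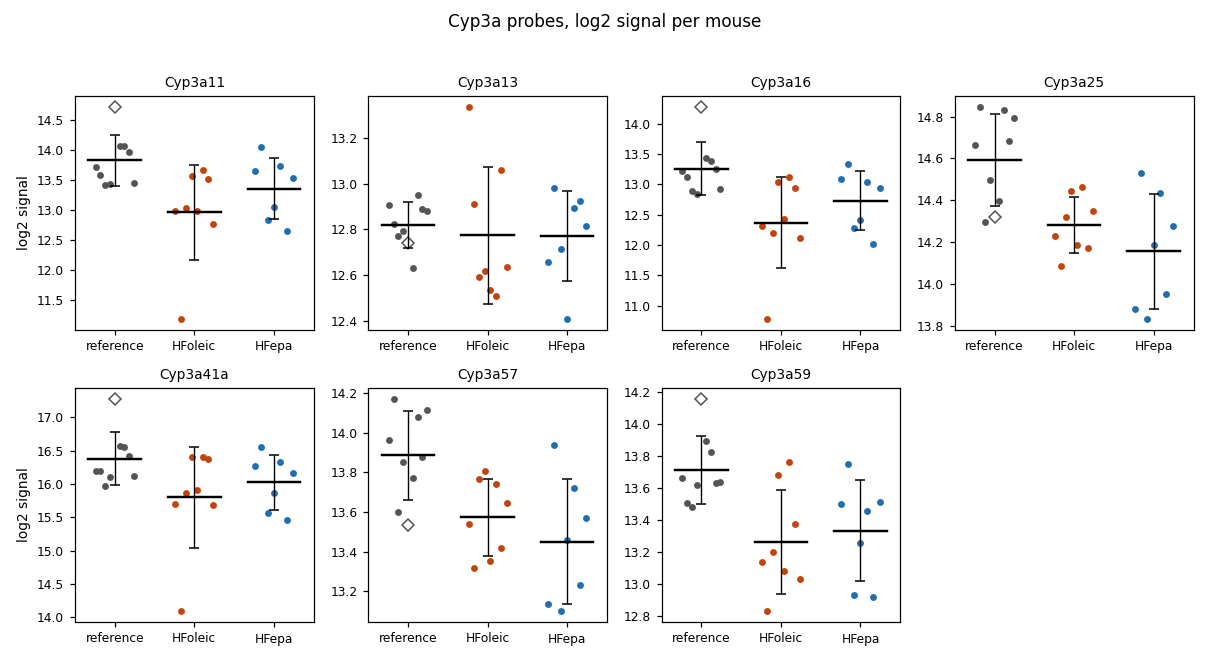
Log2 signal (y axis) of the 7 tested Cyp3a probes in each mouse of the reference, HFoleic and HFepa groups (x axis), with the mean as a line, SD as bars and reference mouse 5 as an open diamond. Reference mouse 5 is the highest reference mouse for Cyp3a11 (14.71), Cyp3a16 (14.29) and Cyp3a41a (17.28), and 1 HFoleic mouse, mouse 2, is the lowest for the same genes (11.18, 10.77 and 14.09).

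Promoter sequence was set beside these values for the pair Cyp3a11 and Cyp3a16, which ranked the same mice highest and lowest, as did Cyp3a41a. The Cyp3a11 probe lists further Cyp3a genes, so that the shared ranking cannot be assigned to separate genes. The 250 bases before the start in RefSeq (GRCm38.p6) lie at chr5:145879855-145880104 for Cyp3a11 and chr5:145469724-145469973 for Cyp3a16, both on the minus strand. Aligned, they shared 200 of 239 bases (83.7%). The letters AGGTCA and TGAACT, core hexamers of nuclear receptor binding sites, were searched on both strands and are in capitals.
Cyp3a11: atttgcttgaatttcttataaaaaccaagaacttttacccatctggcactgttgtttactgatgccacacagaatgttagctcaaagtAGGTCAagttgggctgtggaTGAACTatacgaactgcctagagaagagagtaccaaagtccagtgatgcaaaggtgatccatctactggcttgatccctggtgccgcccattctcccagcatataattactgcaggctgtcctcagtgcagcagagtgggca
Cyp3a16: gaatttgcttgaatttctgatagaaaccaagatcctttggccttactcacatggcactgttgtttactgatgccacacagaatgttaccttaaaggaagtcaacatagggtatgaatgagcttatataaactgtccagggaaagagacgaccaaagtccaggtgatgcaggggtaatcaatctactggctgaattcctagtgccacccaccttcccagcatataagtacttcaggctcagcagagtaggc
Cyp3a11 held AGGTCA 162 bases and TGAACT 142 bases before its start, and Cyp3a16 held neither in this window. AGGTCA occurred in 14% of 32851 promoters and in 11 of the 48 promoters of these P450 genes. TGAACT occurred in 11.8% of all and in 8 of 48, and both together in 1.71% of all and in 1 of 48. Of the 53 gene names on the array, 43 had a promoter in the table.

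Cyp2u1, a fatty acid hydroxylase, gave opposite signs. At A_66_P101879, log2 signal was 7.08, 7.58 and 7.73 in reference, 7.63, 7.96 and 8.33 in HFoleic, and 7.44, 7.82 and 8.0 in HFepa. Of 8 HFoleic mice, 7 were above every reference mouse, and the log2 fold change was 0.44 (0.23 to 0.64, adjusted p = 0.00822 by limma). The call held without each of the 24 mice in turn, and the within-slide values were 0.57, 0.53 and 0.27. At A_52_P421698, with 7.39, 7.87 and 8.23 in reference and 7.94, 8.27 and 8.61 in HFoleic, the change was 0.39 (adjusted p = 0.0557), which passed without reference mouse 2, 7 or 8, HFoleic mouse 5 or 7, or HFepa mouse 2 or 7 (0.39 to 0.44).

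At A_55_P1966734, the Cyp2u1 probe with the repeat, log2 signal was 16.37, 16.85 and 17.02 in reference, 16.17, 16.36 and 16.62 in HFoleic, and 16.07, 16.64 and 16.90 in HFepa. The log2 fold change in HFoleic was -0.43 (-0.63 to -0.22, adjusted p = 0.00993 by limma), and it too held without each mouse in turn. Of the 60 bases of this probe 32 are GT or TG repeat. In all, 71 tested probes had 8 or more such repeat units. In HFoleic 71 of 71 were called lower, with log2 fold changes from -0.88 to -0.26. In HFepa 71 of 71 lay below 0, with a median of -0.35, and none passed the test (limma, adjusted). Neither this probe nor A_66_P101879 lists a RefSeq gene, and A_52_P421698 lists Cyp2u1. Averaged over its 3 probes, Cyp2u1 had a log2 fold change of 0.13 (adjusted p = 0.341). Whether this probe reads Cyp2u1 RNA was not tested.

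Cyp2j5, an arachidonic acid epoxygenase of kidney and liver, was higher at its brighter probe, A_52_P315766, which gave 13.27, 13.96 and 14.27 in reference, 14.11, 14.33 and 14.55 in HFoleic, and 13.94, 14.26 and 14.48 in HFepa. All 8 HFoleic mice were above the reference mean and 5 above every reference mouse. The log2 fold change was 0.42 (0.19 to 0.66, adjusted p = 0.0228 by limma), 1.34-fold. It was 0.34 without reference mouse 5 (adjusted p = 0.0289) and lost its call without HFoleic mouse 8 (0.39, adjusted p = 0.0514). The dimmer Cyp2j5 probe, A_55_P2176535, gave 7.60, 8.73 and 9.17 in reference and 8.75, 9.28 and 9.41 in HFoleic, with a change of 0.52 (adjusted p = 0.0537), which passed without reference mouse 2, 8 or 9 or HFoleic mouse 3 (0.56 to 0.58). Of the other Cyp2j genes, Cyp2j8 lay at 11.59, 12.19 and 12.42 in reference and 12.04, 12.42 and 12.60 in HFoleic (0.26, adjusted p = 0.117), and Cyp2j6, Cyp2j9 and Cyp2j13 ranged from -0.09 to 0.17.

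**Figure D3:**
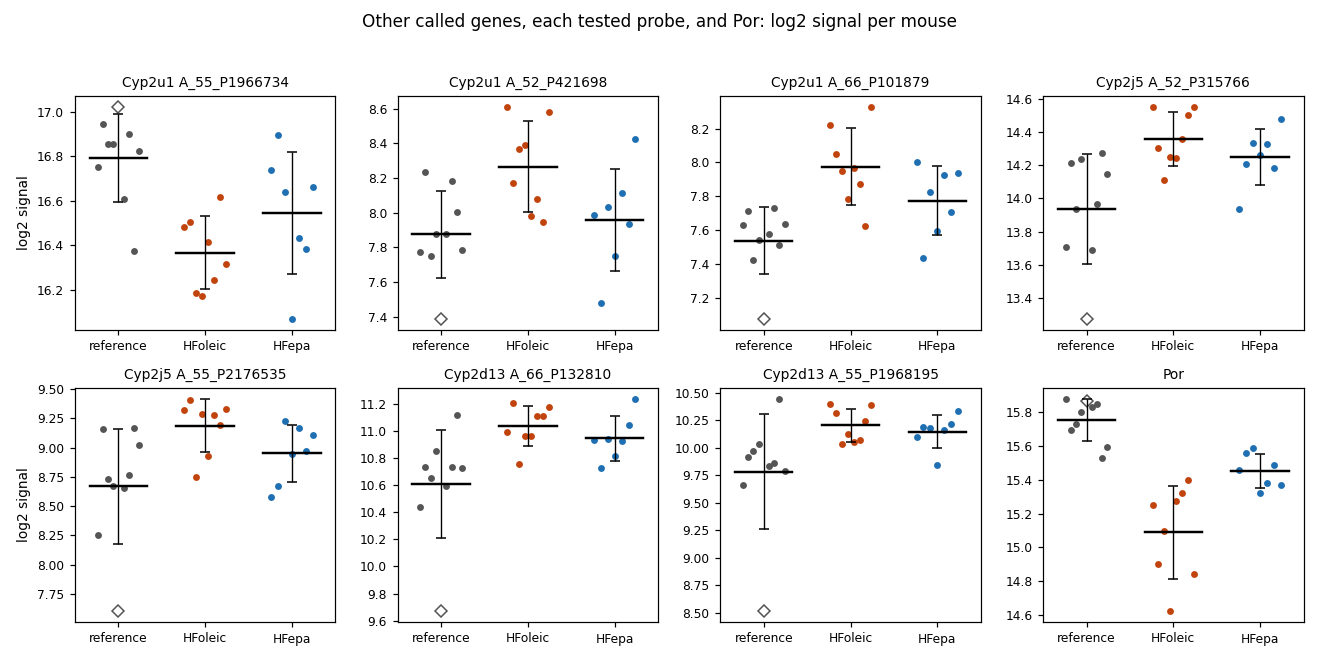
Log2 signal (y axis) per mouse in the 3 groups (x axis) for each tested probe of Cyp2u1, Cyp2j5 and Cyp2d13, and for Por, with means as lines, SD as bars and reference mouse 5 as an open diamond. Cyp2u1 A_55_P1966734 and Por are lower in HFoleic, and the other Cyp2u1, Cyp2j5 and Cyp2d13 probes have higher means there, of which 3 passed the test.

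In the Cyp2d subfamily, 1 of 12 tested probes passed, beside 7.23% of all probes. Cyp2d13 at A_66_P132810 lay at 9.67, 10.73 and 11.12 in reference, 10.76, 11.05 and 11.20 in HFoleic, and 10.72, 10.93 and 11.24 in HFepa. All 8 HFoleic mice were above the reference mean and 2 above every reference mouse, for a log2 fold change of 0.42 (0.16 to 0.69, adjusted p = 0.0429 by limma). It lost its call without any of 11 single mice (reference mouse 1, 3, 6 or 7 and HFoleic mouse 1, 2, 4, 5, 6, 7 or 8, adjusted p 0.0527 to 0.0814) and was 0.31 without reference mouse 5 (adjusted p = 0.0291). Its second probe gave 0.42 (adjusted p = 0.109), or 0.26 without reference mouse 5 (0.0798), passing without reference mouse 8 (0.51, 0.0316). The first probe lists no RefSeq gene, and the second lists Cyp2d13. Cyp2d9, a male-biased testosterone hydroxylase, lay at 12.81, 14.74 and 14.95 in reference and 13.93, 14.26 and 14.73 in HFoleic (-0.21, and -0.41 with adjusted p = 0.0684 without reference mouse 5). Cyp2d22, with 9.33, 9.98 and 10.38 in reference and 9.39, 9.98 and 10.17 in HFoleic, gave -0.03, and the remaining Cyp2d probes ranged from -0.36 (Cyp2d34) to 0.41 (Cyp2d40). Cyp2d34 passed without reference mouse 5 (-0.60, adjusted p = 0.0246), and Cyp2d40 was 0.25 without it (adjusted p = 0.119).

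None of the 16 tested Cyp2c probes passed the adjusted test in HFoleic, and 5 had an unadjusted p under 0.05, beside 21.1% of all probes. The epoxygenase genes Cyp2c37, Cyp2c50 and Cyp2c54 turned on a single mouse. Cyp2c37 lay at 11.53, 15.37 and 15.71 in reference, 15.57, 15.83 and 15.99 in HFoleic, and 15.44, 15.62 and 15.91 in HFepa. The lowest reference value was mouse 5, and the next reference mouse stood at 15.13. The log2 fold change was 0.80 with all mice (0.03 to 1.57, adjusted p = 0.213) and 0.37 without reference mouse 5 (adjusted p = 0.0149 by limma). Cyp2c50 went from 0.83 (adjusted p = 0.196) to 0.40 (0.0260) and Cyp2c54 from 0.88 (0.180) to 0.44 (0.0184). The second Cyp2c50 probe, A_55_P2494143, did not gain a call and went from 0.45 (adjusted p = 0.512) to 0.08 (0.852). The Cyp2c37 probe lists Cyp2c50 as a further match.

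Cyp2c29, which acts on retinoids and fatty acids, lay at 14.09, 15.09 and 15.28 in reference and 15.04, 15.24 and 15.56 in HFoleic (0.31, adjusted p = 0.140, and 0.20 without reference mouse 5). Cyp2c38 lay at 11.86, 13.51 and 13.82 in reference and 13.14, 13.89 and 14.38 in HFoleic (0.56, adjusted p = 0.114). Cyp2c70, which makes the muricholic acids of mouse bile, spread widely in every group, from 12.74 to 14.44 in reference, 12.08 to 14.84 in HFoleic and 12.86 to 14.64 in HFepa. Its residual SD of 0.82 exceeded that of 99.4% of probes tested and was 0.83 without reference mouse 5, and the HFoleic change was -0.08 (-0.84 to 0.69). The remaining 7 Cyp2c genes with a tested probe had changes between -0.08 and 0.19 at their brightest probe.

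**Figure D4:**
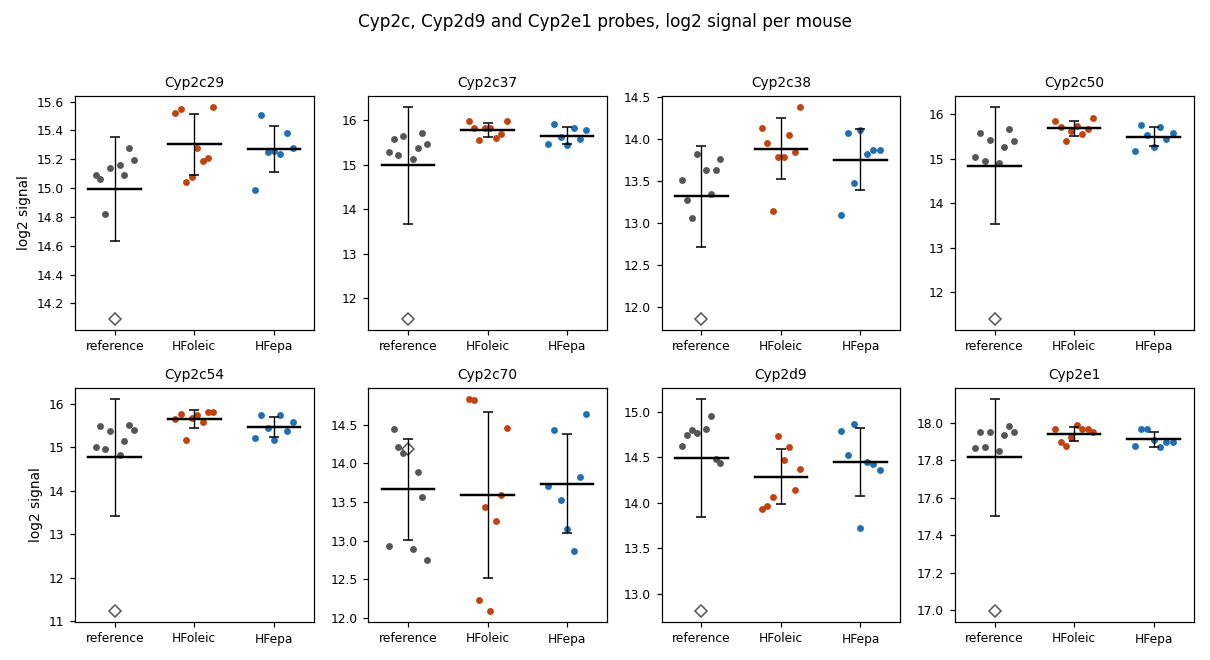
Log2 signal (y axis) of 6 Cyp2c probes, Cyp2d9 and Cyp2e1 in each mouse by group (x axis), with means as lines, SD as bars and reference mouse 5 as an open diamond. Reference mouse 5 sits far below the others for Cyp2c37 (11.53), Cyp2c50 (11.40) and Cyp2c54 (11.24), and within the range for Cyp2c70.

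Reference mouse 5 was the lowest of the 9 reference mice at 37 of the 55 P450 probes with a value in it (67.3%), against 25.8% of 29210 probes, and the highest at 9 (16.4%), against 19.2%. All 12 Cyp2d probes were lowest in it. Cyp2e1, which oxidises ethanol and acetone, read 17.00 in it and 17.85 or more in the other reference mice. Those above the other 8 were Cyp2a4 (16.27), Cyp2a5 (16.99), Cyp3a11, Cyp3a16, Cyp3a41a, Cyp3a59, Cyp2u1 A_55_P1966734 and both Cyp2c55 probes. In the same mouse the 10 pericentral genes outside the P450s summed to 17.00, against 17.35 to 17.85 in the other reference mice, and the 10 periportal genes to 19.04, against 18.21 to 18.74. Of the other gene lists read below, the 7 female-biased genes, P450s among them, summed to 18.11 in it, against 16.84 to 17.30. The 10 male-biased genes gave 18.94, against 18.99 to 19.20. The 18 electron donors and haem enzymes gave 18.41, against 18.55 to 18.70, and the 6 Ahr targets 15.79, against 16.10 to 16.50. The sums of the receptor list and of the CAR and PXR targets lay within the range of the other reference mice. Single receptors did not all do so. Nr1i3 (CAR) read 9.58 in mouse 5 and 11.49 or more in the other reference mice, and Ppargc1a was above the other 8. Ahr, Nr1i2 and Nr3c1 lay within the range. The part of these values in the P450 levels was not tested. The median residual SD of the 56 probes was 0.28 with all mice and 0.23 without mouse 5, and that of all probes 0.18 and 0.17.

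**Figure D5:**
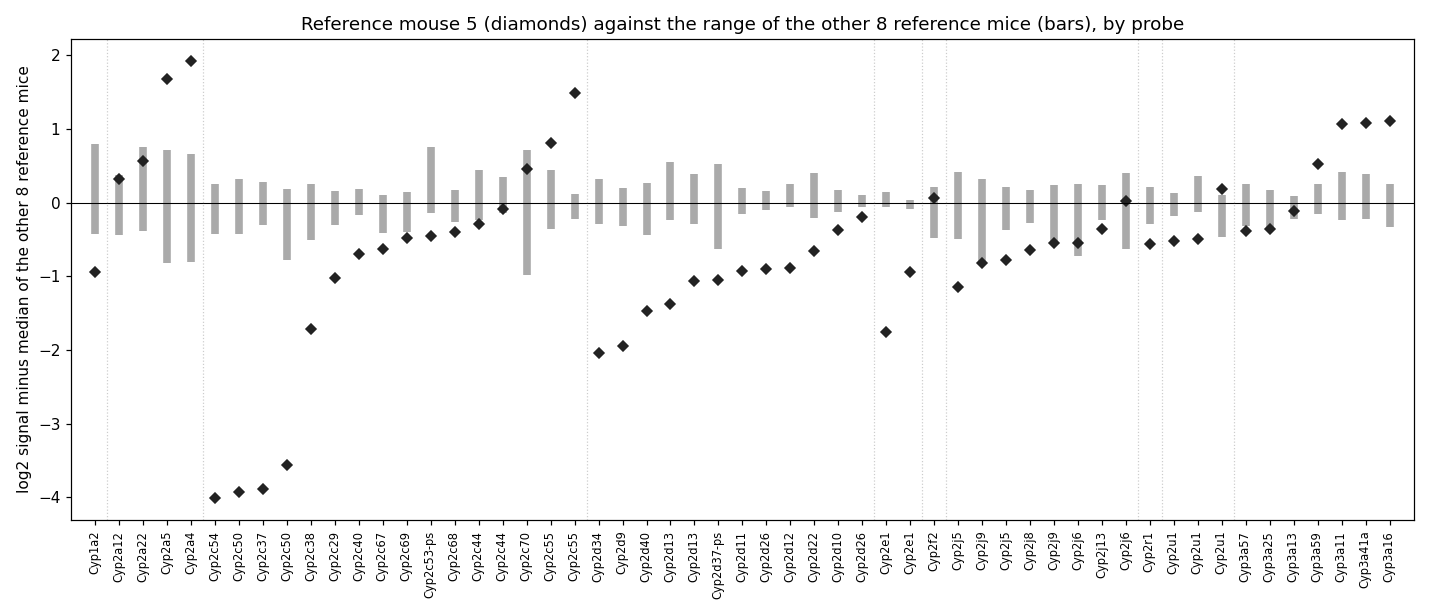
For 55 P450 probes by subfamily (x axis), log2 signal of reference mouse 5 (diamonds) and the range of the other 8 reference mice (bars), both relative to the median of those 8 (y axis). It is below all the others at 37 probes, among them all 12 Cyp2d and 12 of 16 Cyp2c probes, and above all of them at 9, which stand for Cyp2a4, Cyp2a5, Cyp2c55, Cyp2u1, Cyp3a11, Cyp3a16, Cyp3a41a and Cyp3a59.

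Cyp1a, Cyp2a, Cyp2e, Cyp2f, Cyp2g and Cyp2r gave no call with all mice. Cyp1a2, an Ahr target that clears caffeine, lay at 9.32, 10.25 and 11.07 in reference, 9.93, 10.25 and 10.67 in HFoleic, and 9.91, 10.25 and 10.74 in HFepa (log2 fold change in HFoleic 0.01, -0.34 to 0.36, and -0.10 without reference mouse 5). Cyp2e1 had 17.00, 17.93 and 17.98 in reference and 17.88, 17.96 and 17.99 in HFoleic (0.12, and 0.02 without reference mouse 5). Cyp2f2, known for naphthalene oxidation, had 16.06, 16.59 and 16.75 in reference and 16.40, 16.56 and 16.79 in HFoleic (0.10). For these 3 genes the groups overlapped. Cyp2r1, a vitamin D hydroxylase, had 10.35, 10.89 and 11.12 in reference and 10.93, 11.07 and 12.49 in HFoleic (0.45, adjusted p = 0.101). Cyp2a4 and Cyp2a5, hydroxylases of steroids and coumarin, had changes of 0.47 (adjusted p = 0.447) and 0.50 (0.359), with 13.54 to 16.27 and 14.50 to 16.99 in reference. Cyp2a12 had 0.25 (0.100), passing without reference mouse 5 (0.29, adjusted p = 0.0488), reference mouse 8 (0.29, 0.0297) or HFoleic mouse 2 (0.30, 0.0409), and Cyp2g1 had 0.35 (adjusted p = 0.607, with 8 reference mice since 1 spot was an outlier).

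Some genes were below the filter. Cyp1a1, the classic Ahr target, was well above background on 2 of 24 arrays, Cyp1b1 on 8, Cyp2c39 and Cyp2c65 on 3 each, Cyp2c66 and Cyp2j11 on 2 each, and Cyp3a44 on 0. Cyp2ab1, which the name rule takes in with Cyp2a although it belongs to another subfamily, was above background on 2. Another 3 of 4 Cyp2j13 probes and 1 of 2 Cyp2d40 probes were not tested either.

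In HFepa against reference, 0 of the 56 probes passed by limma's adjusted test, beside 0.393% of all probes, and 0 by the methods' t-test, while 10 of 56 had an unadjusted p under 0.05, beside 13.5% of all. Between HFepa and HFoleic, 0 of 56 passed by either test, beside 0% of all probes, and 1 had an unadjusted p under 0.05, Cyp2u1 A_52_P421698 (-0.31, -0.58 to -0.03, adjusted p = 0.449), beside 9.7% of all. The differences largest in size between these groups were those of Cyp2a4 and Cyp2a5, each -0.54 (intervals -1.25 to 0.18 and -1.20 to 0.11), Cyp2g1, -0.43 (-1.14 to 0.29), and Cyp3a11, 0.40 (-0.20 to 0.99).

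Of 18 electron donors and haem enzymes on which P450s depend, 4 were higher in HFoleic and 1 was lower, beside 4.05% and 3.19% of all probes, shares that stand beside each count of genes below as well. Por, which delivers electrons to all these enzymes, lay at 15.53, 15.80 and 15.88 in reference, 14.62, 15.17 and 15.40 in HFoleic, and 15.32, 15.46 and 15.59 in HFepa. Every HFoleic mouse was below every reference mouse. The log2 fold change was -0.67 (-0.85 to -0.48, adjusted p = 0.000253 by limma) in HFoleic and -0.30 (adjusted p = 0.125) in HFepa. Higher were Cyb5b, a cytochrome b5 of the outer mitochondrial membrane (0.64, adjusted p = 0.00224), Alad and Fech of haem synthesis (0.39, 0.00605, and 0.24, 0.00897) and the haem-binding partner Pgrmc1 (0.25, 0.00937). In HFepa 0 of the 18 passed.

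Among the receptors and their partners, 1 of 13 was higher in HFoleic, the glucocorticoid receptor Nr3c1 (0.36, adjusted p = 0.00350), and 1 lower, the coactivator Ppargc1a (-0.54, 0.0296). Ahr (-0.03, 0.907), Nr1i2 (-0.19, 0.353) and Nr1i3 (0.38, 0.314, with 9.58, 11.66 and 11.99 in reference) did not pass. The 9.58 of Nr1i3 was reference mouse 5, without which the change was 0.15 (0.327). Of 6 Ahr targets outside the P450s, Ugt1a6b was higher (0.31, 0.0216). Of 10 CAR and PXR targets, Cyp2b9 (2.99, 0.0288) and Aldh1a1 (0.59, 0.0112) were higher and Gadd45b was lower (-1.14, 0.0168). Cyp2b9 ranged from 5.52 to 10.75 in reference and from 7.27 to 11.69 in HFoleic, so that the groups overlapped.

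Zonal and sex-biased genes were read beside the P450s because many P450s share those patterns. Of 10 pericentral genes, Lgr5 (0.60, adjusted p = 0.0154) and Rgn (0.49, 0.0162) were higher and Lhpp was lower (-0.51, 0.0271). Of 10 periportal genes, 5 were lower, namely Pck1 (-0.74, 0.000602), Cps1 (-0.89, 0.00166), Arg1 (-0.66, 0.00332), Sds (-0.96, 0.00633) and Gls2 (-0.48, 0.0206), enzymes of gluconeogenesis, the urea cycle and amino acid breakdown. Of 10 male-biased genes, Cyp4a12a (-1.04, 0.0349) and Cyp4a12b (-0.98, 0.0491) were lower. Cyp2u1 is on that list too, and its probes passed in opposite directions, as given above. Of 7 female-biased genes Cyp2b9 was higher, and Cyp17a1 (-0.61, 0.0398) and Cyp3a16 were lower. Among cell type markers, 1 of 4 bile duct genes, Sox9 (-0.65, 0.0279), and 1 of 5 hepatocyte genes, Tat (-0.63, 0.00858), were lower. Of 5 stellate cell genes 1, Lrat, was higher (0.56, 0.00150). The median log2 fold changes in HFoleic of these lists were -0.23 (bile duct), -0.01 (hepatocyte) and -0.09 (stellate cell). These values include reference mouse 5, whose bile duct sum was 13.40, against 10.45 to 11.41 in the other 8 reference mice. In HFoleic the bile duct sum was 10.79 to 11.42. The Sox9 value without reference mouse 5 is not given here. Cyp17a1, Cyp2b9, Cyp4a12a, Cyp4a12b, Lhpp and Ppargc1a each lost the call when certain single mice were left out. The part of these shifts in the P450 values was not tested.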

How the data were processed

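Liver RNA of 24 mice was hybridised to 1-colour Agilent arrays, 1 mouse each. The authors deposited Agilent Feature Extraction (10.10.1.1) output, in which each spot's median signal is an intensity without normalization, and a log2 table filtered and quantile normalized by the authors with limma. Spots of a probe were averaged without outlier spots, and log2 intensity was quantile normalized. Probes that rose well above background in 75% or more of the mice of any group were tested with limma 3.58.1 in R 4.3.3, with all 24 arrays in a group means fit and Benjamini-Hochberg adjustment over 30003 probes. Adjusted p under 0.05 is the call. The code was tested on simulated data. Named were genes with a call, up to 20 with the smallest p, a list of main P450s, and called partner genes. Probe coordinates are mm9, per the file headers. The members were taken by gene name alone, but this gene family, the lists and the tests were chosen with earlier results of these data known. Replicate numbers pair no mice. Alternatives were other signals, normalizations, filters, blocks, tests and leaving out each mouse. Each slide held 3 reference, 2 or 3 HFoleic and 2 or 3 HFepa arrays. Precision is limited by how many arrays there were.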

Additional observations from a re-analysis of the deposited data

Results flagged for a closer look

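The brightest tested probes and the called probes were read in each group, which gave 138 sets of values. In 28 of these sets (20.3%) 1 mouse lay far from the rest of its group, where chance gives about 1 in 20. Probes read in the same mouse are not independent, so the share cannot be set against that rate. Reference mouse 5 made up 18 of the 28. It was lowest for Cyp2c29 (14.09), Cyp2c37 (11.53), Cyp2c38 (11.86), Cyp2c40 (11.66), Cyp2c50 (11.40) and Cyp2c54 (11.24). It was also lowest for Cyp2d9 (12.81), Cyp2d11 (16.37), Cyp2d12 (14.37), Cyp2d13 (9.67), Cyp2d34 (8.39), Cyp2d40 (13.41), Cyp2e1 (17.00) and Cyp2u1 A_66_P101879 (7.08). It was highest for Cyp2c55 (7.93), Cyp3a11 (14.71), Cyp3a16 (14.29) and Cyp3a41a (17.28).

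HFoleic mouse 2 was lowest in its group for Cyp2d10 (16.80), Cyp2d26 (17.40), Cyp3a11 (11.18), Cyp3a16 (10.77) and Cyp3a41a (14.09). HFoleic mouse 3 was lowest for Cyp2c54 (15.17) and Cyp2j8 (12.04) and highest for Cyp2r1 (12.49). HFoleic mouse 8 was highest for Cyp2c55 (7.43), and HFepa mouse 4 was lowest for Cyp2c44 (13.80).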

How the results depend on the processing

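Values of single P450 genes were refitted under every alternative. Of these, 5818 kept their side of the threshold, 46 lost the call, 39 gained it and 1 call reversed. Most of the refitted values had no call to lose, since the main fit gave 6 calls, all in HFoleic against reference. In the reversed call, Cyp2u1 went from -0.43 to 0.13 when its 3 probes were averaged, and the averaged value did not pass the test. A change of sign in a value without a call was not counted as reversed. Cyp1a2 in HFoleic, for example, went from 0.01 to -0.10 without reference mouse 5. The 6 P450 calls of HFoleic against reference became 2 under the methods' t-test, the pair of Cyp2u1 probes, of which 1 is repeat-bearing. They became 2 to 10 when single mice were left out. There were 2 without HFoleic mouse 8, and 3 without reference mouse 1, reference mouse 6 or HFoleic mouse 1. There were 10 without reference mouse 5 or 8. Other settings gave 4 to 8, and the replicate block gave 4, where the numbers pair no mice (correlations of same-numbered deviations -0.298 to 0.348). The 0 calls of HFepa against reference became 1, Cyp3a25, with slide row as a block, and from 0 to 1 when single mice were left out. The partner genes are not in those counts and were chosen after seeing the data. Their 22 calls of HFoleic against reference were 16 to 27, and their 0 of HFepa against reference were 0 to 5, with 5 without reference mouse 8. HFepa against HFoleic gave 0 to 0 throughout. The causes were not tested.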
